A study of Bos taurus with 56 samples.

Results

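The peaks described here are those of cattle embryos at the 16-cell and 8-cell stages, consecutive cleavage stages. They come from ATAC-seq, an assay in which a transposase cuts and tags DNA wherever chromatin is accessible, so that reads pile up into peaks over open regions. All 75925 peaks of the 16-cell list and all 59186 peaks of the 8-cell list were taken, 135111 of the 673059 peaks in the 11 lists of the series. Each list was split by position into peaks that overlap a peak of the other list by 1 bp or more, called shared, and peaks that do not, called 16-cell only or 8-cell only. The 16-cell and 8-cell groups had 5 libraries each, and the series text says that oocytes or embryos were pooled for sequencing, without giving the number per library. The lists used most to follow these peaks came from 4-cell embryos (6 libraries), morulae (6), morulae labelled as derived in vivo (4) and day 14 elongating embryos (6). Short lists from GV oocytes (6 libraries), MII oocytes (5), 2-cell embryos (6), blastocysts (3) and blastocysts labelled as derived in vivo (4) were used in a few places. The labels give no breed, parentage, culture condition or treatment for any group, and only the in vivo label says anything of how embryos were obtained.

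Cattle embryos live on RNA and protein stored in the oocyte through the first divisions and switch on most transcription from their own genome around the 8-cell and 16-cell stages. Promoters and enhancers become accessible when nucleosomes are displaced by transcription factors and remodelling enzymes, and an accessible region can close again when those factors are lost. The morula that follows is a compacting ball of cells that has not yet set aside an outer trophectoderm and an inner cell mass. By day 14 the hatched embryo elongates, and trophoblast, the tissue that will form the fetal part of the placenta, makes up most of it.

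The authors deposited 1 merged list per stage, holding positions and no heights, scores or read counts. Replicate spread and sequencing depth therefore could not be computed, no p-value is given, and every difference below is between single lists. Intervals on shares are 95% exact Clopper-Pearson intervals. They take in counting error alone, as if each peak were independent of its neighbours. Positions are those of build UMD3.1, printed with the first base counted as 1. The gene table at hand belongs to another cattle assembly, so neither genes nor sequence were read at these positions.

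The 16-cell list was longer than the 8-cell list, but its peaks were narrower. Its peaks covered 41.8 Mb in 16-cell embryos, 1.57% of the span of all lists, against 36.8 Mb or 1.38% in 8-cell embryos, so covered bases differed by a factor of 1.134 and peak numbers by 1.28. The median width was 409 bp in the 16-cell list and 458 bp in the 8-cell list, and the median was lower in 16-cell embryos on all 30 chromosomes. The surplus of 16-cell peaks lay among narrow peaks, with 19840 peaks under 300 bp at the 16-cell stage and 9132 at the 8-cell stage. Among broad peaks the order turned round. There were 8282 peaks of 1000 bp or more in the 16-cell list and 8339 in the 8-cell list, 888 in the 16-cell and 1237 in the 8-cell list of 2000 bp or more, and 151 in the 16-cell and 271 in the 8-cell list of 3000 bp or more. The narrowest peak was 193 bp wide at the 16-cell stage and 217 bp at the 8-cell stage, so the lists did not share a lower bound of width.

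Most peaks of either list had no counterpart in the other. In the 16-cell list 27387 peaks met the 8-cell list (36.1%, interval 35.7% to 36.4%), and 48538 (63.9%) did not. In the 8-cell list 26635 peaks (45.0%) met the 16-cell list, and 32551 (55.0%, interval 54.6% to 55.4%) did not. Counted in bases, 15.2 Mb were covered at both stages, 36.4% of the 16-cell bases, 41.3% of the 8-cell bases and 24.0% of the bases covered in either list. Unshared peaks were seldom near misses. The nearest 8-cell peak lay within 500 bp of 7.34% of the 16-cell only peaks, and the nearest 16-cell peak within 500 bp of 10.1% of the 8-cell only peaks. The median distance to the other list was 12852 bp for 16-cell only peaks and 6628 bp for 8-cell only peaks. With the 16-cell list kept to its widest peaks at the length of the 8-cell list, which changes length and width together, 41.9% of 16-cell and 41.6% of 8-cell peaks were shared. With a requirement that the overlap cover 50% of both peaks, 20.4% of 16-cell and 26.1% of 8-cell peaks were shared.

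Shared peaks were broad and unshared peaks narrow at both stages. The median width was 632 bp for shared and 352 bp for unshared peaks of the 16-cell list, and 668 bp for shared and 382 bp for unshared peaks of the 8-cell list. Of the 16-cell peaks under 300 bp, 15.9% were shared, against 87.2% of those of 1500 bp or more. Of the 8-cell peaks, 20.7% were shared under 300 bp and 94.1% at 1500 bp or more. In each of the 7 width bands examined the share was lower among 16-cell peaks than among 8-cell peaks. The 8-cell peaks were matched against the longer list, which by itself raises their share. A broad peak covers more bases that a peak of another list can touch, so width by itself moves these shares. Broad unshared peaks still existed, with 1730 of 1000 bp or more in the 16-cell only class and 1097 in the 8-cell only class. None of the unshared peaks in either list reached 5000 bp, a width that 10 shared 16-cell peaks and 29 shared 8-cell peaks reached.

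**Figure D1:**
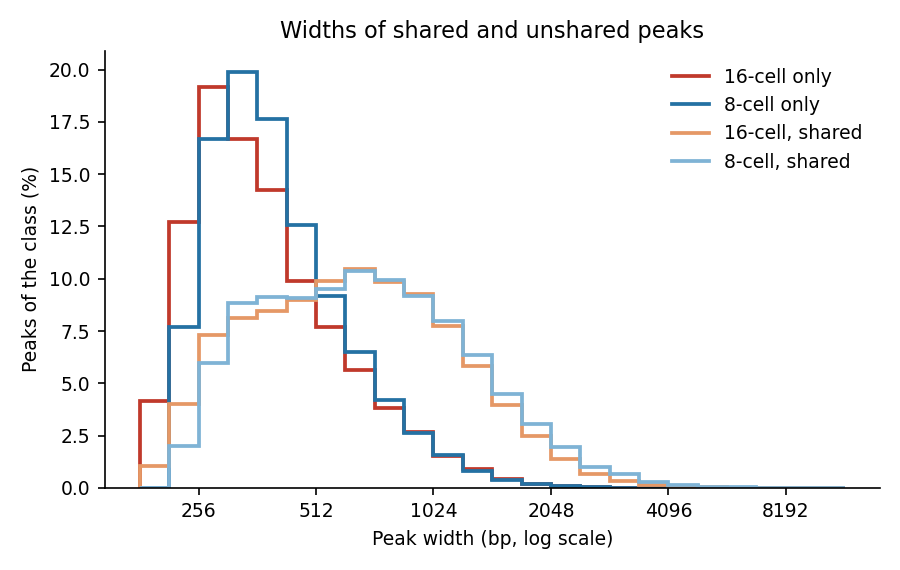
Share of peaks (y axis, percent of the class) by peak width (x axis, bp, log scale) for 16-cell only, 8-cell only and shared peaks of each list. Unshared peaks have medians of 352 bp in the 16-cell list and 382 bp in the 8-cell list. Shared peaks have medians of 632 bp in the 16-cell list and 668 bp in the 8-cell list.

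At regions open at both stages the width changed little in the middle of the distribution and widely at its edges. In 22599 regions exactly 1 16-cell peak met exactly 1 8-cell peak. Peaks at these one-to-one regions had a median width of 634 bp in 16-cell embryos and 653 bp in 8-cell embryos. The median log2 ratio of 16-cell over 8-cell width was -0.07 (interval -0.08 to -0.06), and the middle 90% of regions ran from -1.52 to 1.37. The 16-cell peak was the narrower one in 53.8% of regions and the wider one in 46.1%. In 2401 regions (10.6%) it was wider by 2-fold or more, and in 3047 regions (13.5%) it was narrower by 2-fold or more. These counts take in all one-to-one regions, and without replicate lists it is unknown how far the same width would vary between libraries of 1 stage. With both lists kept to peaks of 500 bp or more the median log2 ratio was -0.068, and at their common lower bound of width it was -0.063. Keeping the 16-cell list to its widest peaks at equal length removes narrow peaks from that list alone, which by itself moves the ratio up. The median was then -0.0082 (interval -0.020 to 0.0036), with 11.4% of regions 2-fold wider and 10.7% 2-fold narrower in 16-cell embryos, so the excess of narrowed regions turned round.

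**Figure D2:**
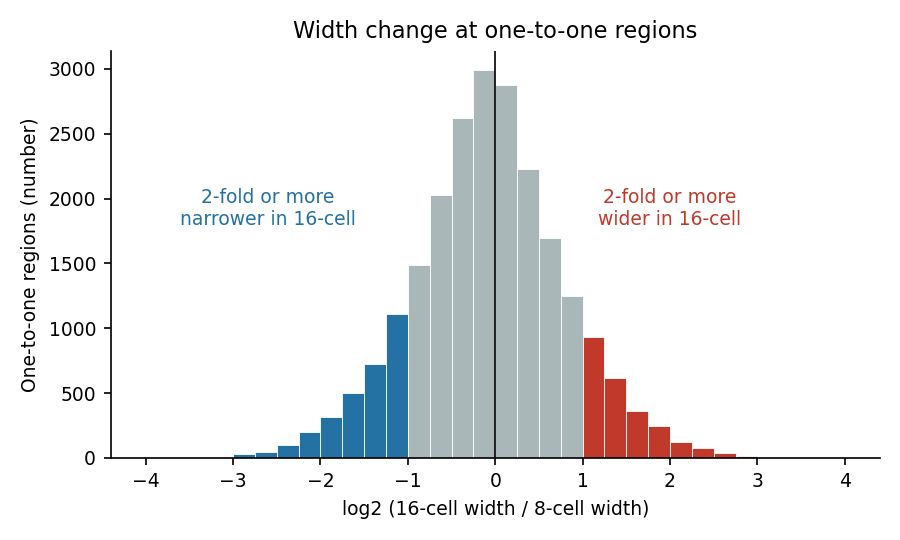
Number of one-to-one regions (y axis) by log2 ratio of 16-cell over 8-cell width (x axis), with changes of 2-fold or more coloured. The distribution is centred just below 0, with 3047 regions in the narrower tail and 2401 in the wider tail.

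Most regions did not grow or shrink on both sides. The 16-cell peak reached beyond the 8-cell peak at both ends in 22.0% of one-to-one regions and lay inside it at both ends in 25.3%. In 52.7% both ends moved the same way along the chromosome or 1 end alone moved, and 1 region had the same start and end in both lists. The centre of the peak moved by a median of 131.5 bp, and 90% of regions moved by 370.5 bp or less. Elsewhere a peak of 1 list met 2 or more of the other. A total of 1840 8-cell peaks met 2 or more 16-cell peaks, up to 5, and 1210 16-cell peaks met 2 or more 8-cell peaks, up to 4.

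The regions whose width changed most were narrow spots at one stage and domains of 2 to 3 kb at the other. The largest widening was on chromosome 6, where the 16-cell peak ran from 47049911 to 47052917 (3007 bp) and the 8-cell peak measured 264 bp, an 11.4-fold difference. This region stayed wide in the morula list (3036 bp) and at day 14 (1446 bp), and measured 323 bp in the in vivo morula list. On chromosome 7 a 16-cell peak from 108121367 to 108123956 (2590 bp) stood over an 8-cell peak of 236 bp, and on chromosome 17 one from 34409538 to 34412155 (2618 bp) over an 8-cell peak of 249 bp. Widened peaks on chromosome 3 (2624 bp in the 16-cell list, 291 bp in the 8-cell list) and chromosome 15 (2204 bp in the 16-cell list, 250 bp in the 8-cell list) completed the top 5. All 5 had a morula peak, of 934 to 3036 bp, and none had a 4-cell or blastocyst peak. The regions on chromosomes 7 and 17 had no in vivo morula peak, and only the region on chromosome 6 had a day 14 peak.

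Fewer of the 5 regions that narrowed most had a morula peak. On chromosome 29 the 16-cell peak measured 216 bp and the 8-cell peak, from 29628964 to 29631957, measured 2994 bp, a 13.9-fold difference. That region was wide again in the morula list (1860 bp) and the in vivo morula list (1351 bp), and had a day 14 peak of 523 bp. The other 4 had no peak in the morula, in vivo morula or day 14 lists. They lay on chromosome 7 (201 bp in 16-cell embryos, 2325 bp in 8-cell embryos), chromosome 26 (280 bp in 16-cell, 3004 bp in 8-cell embryos), chromosome X (265 bp in 16-cell, 2786 bp in 8-cell embryos) and chromosome 11 (247 bp in 16-cell, 2437 bp in 8-cell embryos).

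Over all one-to-one regions, widened places were found again in the morula more often than narrowed ones. A region counted as found when a later peak touched the stretch open at both stages. That stretch is no longer than the narrower peak, so it was shorter in widened and narrowed regions than in most regions within 2-fold. A longer stretch is touched more easily, so the shares of regions within 2-fold are not on the same footing as the other 2 classes. Of the 2401 regions 2-fold or more wider in 16-cell embryos, 74.7% (interval 72.9% to 76.4%) were in the morula list, against 69.2% of regions within 2-fold and 52.2% (interval 50.5% to 54.0%) of the 3047 narrowed ones. In the in vivo morula list the shares were 49.4% for widened, 50.6% for regions within 2-fold and 34.7% for narrowed regions. Where widened regions had a morula peak its median width was 1155 bp, against 1008 bp at the 16-cell stage and 356 bp at the 8-cell stage. Regions within 2-fold also had broad morula peaks, with a median of 1058 bp, against 644 bp at the 16-cell stage and 648 bp at the 8-cell stage. Narrowed regions that were found had a median of 872 bp in the morula list, against 340 bp at the 16-cell stage and 997 bp at the 8-cell stage. The day 14 shares were nearer to each other, 46.8% for widened, 55.3% for regions within 2-fold and 44.0% for narrowed regions.

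Peaks seen at the 16-cell stage alone were found in later lists more often than peaks seen at the 8-cell stage alone. Of the 16-cell only peaks, 34.7% (interval 34.3% to 35.2%) overlapped a morula peak, against 15.4% (interval 15.0% to 15.8%) of the 8-cell only peaks. In the in vivo morula list the shares were 21.0% of 16-cell only and 8.43% of 8-cell only peaks, and in the day 14 list 32.5% of 16-cell only and 22.5% of 8-cell only peaks. Shared peaks were found most often, with 69.2% of the shared 16-cell peaks in the morula list, 49.98% in the in vivo morula list and 54.7% in the day 14 list. For scale, the morula list covered 2.47% of the span of all lists, the in vivo morula list 1.60% and the day 14 list 4.66%. These percents are a scale for a single base. A whole peak that needs 1 bp of overlap meets a list more often by position alone, broad peaks most of all, and that level was not computed. The morula is 1 stage from the 16-cell embryo and 2 stages from the 8-cell embryo, so the shares do not compare equal intervals of development. Nor are the classes symmetric. The 8-cell only peaks were chosen for absence from the 16-cell list, which lies between them and the later lists. The 8-cell peaks that persisted went to the shared class, of which 70.0% were in the morula list. A lower later share of 8-cell only peaks is therefore partly built into the split. The levels of these shares depend on the overlap rule and on width. Under all 9 alternatives tried, 16-cell only peaks were above 8-cell only peaks in each of the 3 later lists. In the morula list the factor was 1.70 to 2.68. The alternatives, and the values by chromosome that follow, all define these classes by absence from the other list. None of them removes the built-in part. On all 30 chromosomes the morula share was higher for 16-cell only than for 8-cell only peaks, at 26.4% to 46.0% for 16-cell only and 10.2% to 28.7% for 8-cell only peaks.

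Broad peaks set the classes furthest apart. For 16-cell only peaks the share found in the morula list climbed with width, at 22.1% under 300 bp, 50.5% from 500 to 699 bp, 78.8% from 1000 to 1499 bp and 89.9% (interval 86.1% to 93.0%, 327 peaks) at 1500 bp or more. For 8-cell only peaks it stayed low in every band, at 12.3% under 300 bp, 19.6% from 500 to 699 bp, 24.1% from 1000 to 1499 bp and 25.4% (interval 19.2% to 32.4%, 181 peaks) at 1500 bp or more. Shared peaks of 1500 bp or more were found there in 94.3% of cases for 16-cell and 88.5% for 8-cell peaks. Broad 16-cell only peaks lay near the shared ones and broad 8-cell only peaks far under them. The built-in part of the split bears on broad peaks too. Of the 8-cell peaks of 1500 bp or more, 94.1% went to the shared class. The 181 left had no overlap with the 16-cell list anywhere along their width. How much of the gap at each width is built in was not tested. At 1000 bp or more, 80.9% of 16-cell only peaks were in the morula list, 24.3% of 8-cell only peaks, 90.02% of shared 16-cell peaks and 83.6% of shared 8-cell peaks. The in vivo morula list gave 59.2% for 16-cell only and 14.4% for 8-cell only peaks of that width. The day 14 list gave 55.1% for 16-cell only and 30.5% for 8-cell only peaks.

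**Figure D3:**
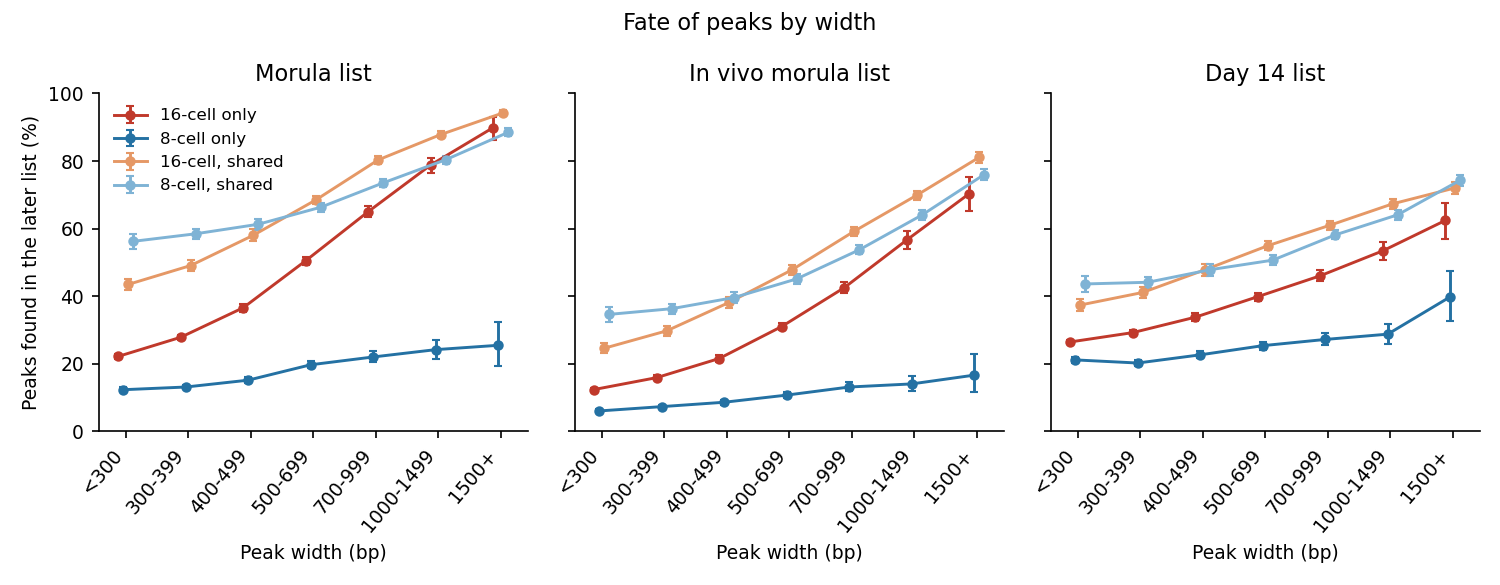
Share of peaks found in the morula, in vivo morula and day 14 lists (y axis, percent, with 95% exact intervals) by peak width (x axis, bp) for unshared and shared peaks of both lists. In the morula panel 16-cell only peaks climb to 89.9% in the broadest band, while 8-cell only peaks reach 25.4%.

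The gap was also present when the width of the peak itself could not add to the chance of being touched by a later peak. The classes were still those split by 1 bp of overlap, where width counts, so the built-in part remains. When the central base of a peak had to lie in a later peak, a rule added after the values were seen, 68.2% of 16-cell only and 12.9% of 8-cell only peaks of 1000 bp or more were found in the morula list. For day 14 the values were 29.9% for 16-cell only and 10.6% for 8-cell only peaks. Over all widths the central base lay in a morula peak for 29.2% of 16-cell only and 10.9% of 8-cell only peaks.

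Over the 3 later lists together, most 8-cell only peaks were not seen again. Of them 22129 (68.0%) were in none of the morula, in vivo morula and day 14 lists, against 23809 (49.1%) of the 16-cell only peaks and 22.2% of the shared 16-cell peaks. Peaks found in all 3 later lists made up 11.1% of the 16-cell only class (5377 peaks), 3.79% of the 8-cell only class (1233 peaks) and 38.3% of the shared 16-cell peaks. A similar part of both unshared classes was found at day 14 and in neither morula list, 13.2% of 16-cell only and 13.8% of 8-cell only peaks. Of the 8-cell only peaks, 5937 (18.2%) were absent from the 16-cell list and present again in at least 1 of the morula lists.

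Few peaks of either unshared class were in earlier lists. The 4-cell list, which is short at 5810 peaks, held 0.696% of 16-cell only peaks, 1.23% of 8-cell only peaks and 5.54% of shared 16-cell peaks. In GV oocytes, arrested before the first meiotic division, the shares were 0.439% for 16-cell only, 0.642% for 8-cell only and 3.79% for shared 16-cell peaks. Regions that recur in 2 or more of the 6 short lists (oocytes, 2-cell and 4-cell embryos, and blastocysts) took in 0.381% of 16-cell only and 0.654% of 8-cell only peaks. Among shared 16-cell peaks they made up 3.21%.

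The widest 16-cell only peaks formed domains that lasted into the morula. The widest ran on chromosome 2 from 120884006 to 120888442 (4437 bp) and had peaks of 3497 bp in the morula, 814 bp in the in vivo morula and 903 bp in the day 14 list. On chromosome 11, from 49421715 to 49425778, the 16-cell peak of 4064 bp was followed by one of 7205 bp in the morula, 4964 bp in the in vivo morula and 2469 bp at day 14. On chromosome 6, from 73605871 to 73609231, the peak of 3361 bp was followed by one of 8639 bp in the morula. The peaks on chromosome 3 from 92243654 to 92247240 (3587 bp) and on chromosome 8 from 40305553 to 40309172 (3620 bp) also recurred in the morula, in vivo morula and day 14 lists. These 5 regions are the widest of their class found in all 3 later lists. The remaining region of the 6 widest, on chromosome 7 from 79344588 to 79348705 (4118 bp), was in both morula lists and not at day 14.

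None of the 6 widest 8-cell only peaks had a peak in either morula list. The widest, on chromosome 15 from 78020501 to 78024043 (3543 bp), was already open at the 4-cell stage (1067 bp) and was in no later list. The one on chromosome 28 from 2661625 to 2664767 (3143 bp) likewise had a 4-cell peak, of 534 bp, and none later. Peaks on chromosome 18 from 45514434 to 45517311 (2878 bp) and on chromosome 8 from 80855392 to 80858253 (2862 bp) were found at the 8-cell stage alone among all 11 lists. So was the next widest peak without a later one, on chromosome 1 from 94079165 to 94081820 (2656 bp). On chromosome 18 from 57604573 to 57607743 the 8-cell peak of 3171 bp had peaks in GV oocytes (3511 bp), 2-cell embryos (240 bp), 4-cell embryos (765 bp) and day 14 embryos (3292 bp). The peak on chromosome 5 from 52168867 to 52171818 (2952 bp) returned at day 14, at 652 bp.

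The widest 8-cell only peaks that did return in all 3 later lists were narrower there. On chromosome 18 from 36505110 to 36507480 the 8-cell peak measured 2371 bp, and later peaks measured 1069 bp in the morula, 980 bp in the in vivo morula and 267 bp at day 14. A further 2 regions of the top 5 were also on chromosome 18, from 58260527 to 58262763 (2237 bp) and from 65196201 to 65198411 (2211 bp), with morula peaks of 1505 and 1733 bp. The others, on chromosome 1 from 72636849 to 72639179 (2331 bp) and on chromosome 10 from 4951741 to 4954018 (2278 bp), had morula peaks of 515 and 580 bp.

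The widest shared 16-cell peaks changed in both directions. On chromosome 12, from 58059934 to 58067136, the peak spanned 7203 bp in 16-cell embryos, against 1772 bp in 8-cell embryos, and 9179 bp in the morula. On chromosome 10 from 65605943 to 65611398 it spanned 5456 bp at the 16-cell and 1582 bp at the 8-cell stage, and on chromosome 9 from 13225518 to 13230756 it spanned 5239 bp at the 16-cell and 1411 bp at the 8-cell stage. On chromosome 6 from 49139501 to 49144979 the 16-cell peak of 5479 bp was narrower than the 8-cell peak of 8821 bp, and the morula peak was narrower again at 2050 bp. On chromosome 3 from 8102327 to 8108521, a region with a peak in all 11 lists, widths were 6195 bp at the 16-cell stage and 9099 bp at the 8-cell stage. On chromosome 23 from 30711642 to 30717140 they were near each other, 5499 bp at the 16-cell and 5084 bp at the 8-cell stage.

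By chromosome, the lists were distributed alike with a few exceptions. The share of the 16-cell list on a chromosome was divided by its share of the 8-cell list, and 27 of the 29 autosomes lay between 0.8 and 1.2. Chromosome 18 had the lowest ratio, 0.753, with 2213 peaks in 16-cell and 2292 in 8-cell embryos. It was the 1 chromosome with fewer peaks in the longer list. Next came chromosome 17 (0.856, with 1988 16-cell and 1811 8-cell peaks) and chromosome 12 (0.865, with 1880 16-cell and 1695 8-cell peaks). The highest ratios were those of chromosome 22 (1.21, with 1772 16-cell and 1137 8-cell peaks), chromosome 28 (1.130, with 1267 16-cell and 874 8-cell peaks) and chromosome 16 (1.11, with 2433 16-cell and 1712 8-cell peaks).

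**Figure D4:**
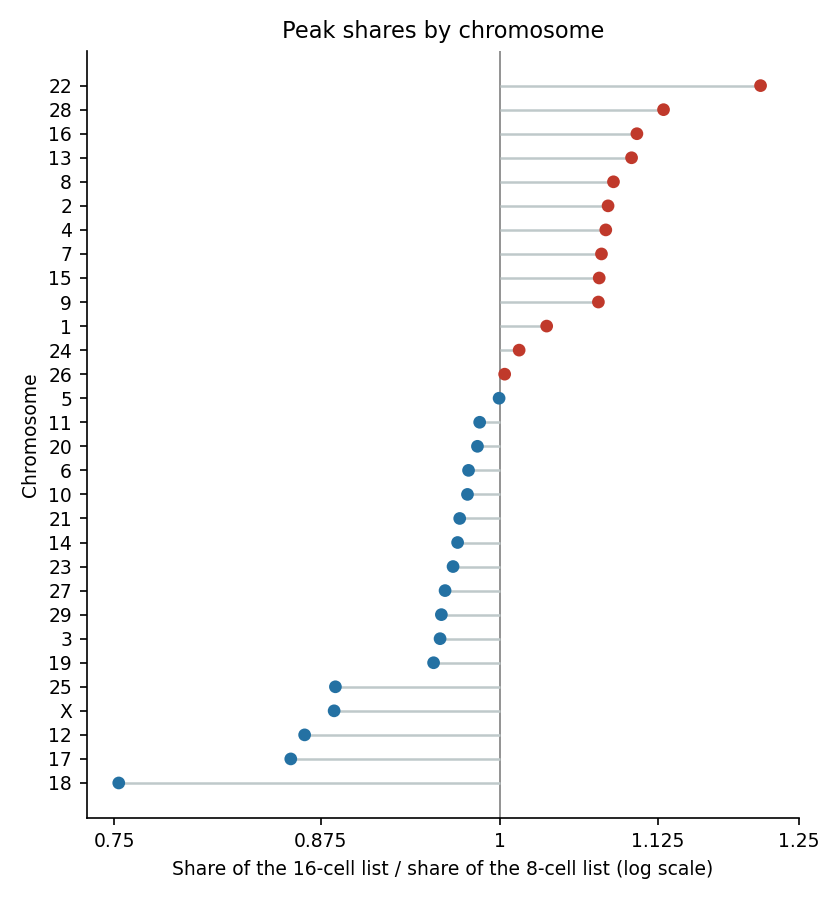
Share of the 16-cell list divided by share of the 8-cell list (x axis, log scale) for each of the 30 chromosomes (y axis), ordered by the ratio, red above 1 and blue under it. Chromosome 18 stands apart at 0.753 and chromosome 22 at 1.21, with most others near 1.

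On chromosome 18 the deficit lay in the distal part, a division at 40 Mb made after its values were seen. Up to 40 Mb there were 1092 peaks in 16-cell and 934 in 8-cell embryos, a ratio of shares of 0.911. From 40 Mb to the end there were 1121 in 16-cell and 1358 in 8-cell embryos, a ratio of 0.643, and all 3 stretches of 10 Mb or less there had more 8-cell than 16-cell peaks. In the distal part 62.2% of 16-cell peaks and 48.0% of 8-cell peaks were shared. The unshared peaks numbered 424 in 16-cell and 706 in 8-cell embryos. In the day 14 list 57.5% of distal 16-cell only and 46.9% of distal 8-cell only peaks were found, against 32.1% of 16-cell only and 21.8% of 8-cell only peaks on the other chromosomes. Chromosomes 19 and 25 also had high day 14 shares, 56.8% and 51.9% of 16-cell only and 41.7% and 39.5% of 8-cell only peaks. This distal part held 1.84% of the 4-cell list, 2.29% of the 8-cell list, 1.48% of the 16-cell list, 1.51% of the morula list, 1.804% of the in vivo morula list and 2.04% of the day 14 list.

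Chromosome 22, whose last peak ends at 61.4 Mb, had a gain instead, largest between 30 and 50 Mb. Between 30 and 40 Mb it held 237 peaks in 16-cell and 123 in 8-cell embryos, a ratio of shares of 1.502. Between 40 and 50 Mb it held 341 in 16-cell and 165 in 8-cell embryos, a ratio of 1.61. Of the 8-cell peaks of chromosome 22, 51.6% were shared. On chromosome 28 the last stretch, from 40 Mb, had a ratio of 1.62, with 179 peaks in 16-cell and 86 in 8-cell embryos.

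The X chromosome held 2.88% of the 16-cell list and 3.26% of the 8-cell list, a ratio of 0.884 that lies within the range of the autosomes. Its stretches were uneven, from a ratio of 0.520 between 40 and 50 Mb, with 62 peaks in 16-cell and 93 in 8-cell embryos, to 1.46 beyond 140 Mb, with 144 in 16-cell and 77 in 8-cell embryos. Unshared X peaks were found in the morula list unusually often, 46.0% of 16-cell only and 28.7% of 8-cell only peaks, the highest value of any chromosome in both classes. In the in vivo morula list the values were 16.9% of 16-cell only and 7.08% of 8-cell only peaks, within the range of the autosomes. X held 4.26% of the morula list and 2.17% of the in vivo morula list. Embryo sex is not given in the labels, and its part in the X values was not tested.

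At the scale of 1 Mb the lists followed each other. Across 2678 windows of 1 Mb the median was 25 peaks per window in 16-cell and 19 in 8-cell embryos. Spearman's rho between the counts was 0.77 and Pearson's r 0.81, a description over windows that share gene density and mappability and are not independent. Counts in 16-cell embryos followed those of the morula list with a rho of 0.81, the in vivo morula list with 0.77 and the day 14 list with 0.60. For 8-cell counts these values were 0.65, 0.66 and 0.44. With the 4-cell list rho was 0.33 for 16-cell and 0.32 for 8-cell counts.

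Among 2432 windows with 20 or more peaks in both lists together, 147 (6.04%) held a share of the 16-cell list at least 2-fold higher than of the 8-cell list. A further 76 (3.12%) held a share of the 8-cell list at least 2-fold higher. Low counts put many windows past such a limit, and the 16-cell and 8-cell values of these windows are fixed by their choice. Other lists did not enter the choice. The windows higher in 16-cell embryos made up 5.49% of all windows. They held 3.70% of 4-cell, 2.28% of 8-cell, 5.65% of 16-cell, 5.39% of morula, 5.03% of in vivo morula and 5.67% of day 14 peaks. The 16-cell and 3 later lists thus held about the share of all windows there, and the 8-cell list held less. The windows higher in 8-cell embryos made up 2.84% of all windows. They held 3.49% of 4-cell, 3.43% of 8-cell, 1.49% of 16-cell, 1.88% of morula, 1.67% of in vivo morula and 1.24% of day 14 peaks. In both sets the 3 later lists were nearer to the 16-cell than to the 8-cell list, and in the windows higher in 8-cell embryos the 4-cell list was nearer to the 8-cell list. The short blastocyst list placed 3.03% of its peaks in the windows higher in 16-cell embryos and 6.59% in those higher in 8-cell embryos, whereas the in vivo blastocyst list placed 3.52% and 3.44% there.

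**Figure D5:**
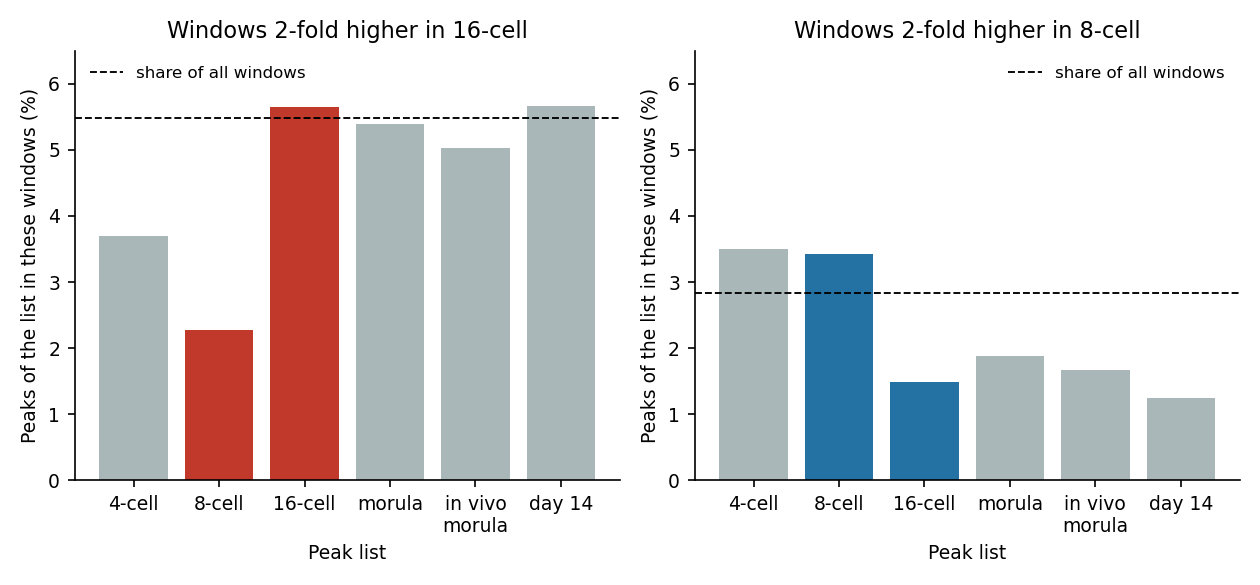
Share of each peak list (y axis, percent) in the 147 windows of 1 Mb with a 2-fold higher share in 16-cell embryos (left) and the 76 with a 2-fold higher share in 8-cell embryos (right), by stage (x axis), the dashed line giving the share of all 2678 windows and coloured bars the lists used to choose the windows. Morula, in vivo morula and day 14 bars are close to the 16-cell bar on the left, at 5.39%, 5.03% and 5.67% beside 5.65%. These bars lie near the dashed line at 5.49%, and the 8-cell bar lies under it.

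The window that differed most lay on chromosome 13 between 19 and 20 Mb, with 29 peaks in 16-cell and 3 in 8-cell embryos. It held 13 morula and 11 in vivo morula peaks, and 27 of its 16-cell peaks were unshared. Chromosome 5 between 106 and 107 Mb had 24 peaks in 16-cell and 3 in 8-cell embryos, and chromosome 15 between 28 and 29 Mb had 28 in 16-cell and 4 in 8-cell embryos. That window on chromosome 15 held 23 peaks in the morula, 29 in the in vivo morula and 374 in the day 14 list. On chromosome 9 between 27 and 28 Mb there were 19 peaks in 16-cell and 3 in 8-cell embryos, on chromosome 1 between 79 and 80 Mb 29 in 16-cell and 5 in 8-cell embryos, and on chromosome 28 between 34 and 35 Mb 23 in 16-cell and 4 in 8-cell embryos. These windows were chosen for low 8-cell counts relative to 16-cell counts, and the morula list is longer than the 8-cell list, at 88858 against 59186 peaks. In all 6 of these windows the morula list held more peaks than the 8-cell list, which is largely fixed by that choice.

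In the other direction the most different window was the first of chromosome 15, between 0 and 1 Mb, with 7 peaks in 16-cell and 25 in 8-cell embryos. It also held 11 peaks in 4-cell embryos, 23 in the morula list, 2 in the in vivo morula list and 10 in blastocysts. Chromosome 7 between 42 and 43 Mb had 6 peaks in 16-cell and 20 in 8-cell embryos, with 13 in the morula and 1 in the in vivo morula list. Chromosome 1 between 86 and 87 Mb had 15 in 16-cell and 39 in 8-cell embryos, with 32 in the morula list. On chromosome 12 the windows between 6 and 7 Mb (10 peaks in 16-cell and 25 in 8-cell embryos) and between 26 and 27 Mb (12 in 16-cell and 29 in 8-cell embryos) were both among the 6, as was chromosome X between 98 and 99 Mb (6 in 16-cell and 14 in 8-cell embryos). These windows were chosen for low 16-cell counts relative to 8-cell counts. The morula list exceeded the 16-cell count in all 6, whereas the in vivo morula list was under it in 5 of the 6 and above it on chromosome 1, with 16 peaks against 15.

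Along the autosomes both lists thinned towards the start of the chromosome, and 8-cell only peaks did so least. When each autosome was cut into 10 equal parts, the first held 7.38% of 16-cell only and 8.98% of 8-cell only peaks. The last held 10.9% of 16-cell only and 9.63% of 8-cell only peaks. Clustering was similar in both classes, since the fullest 268 of the 1 Mb windows held 21.2% of 16-cell only and 22.5% of 8-cell only peaks.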

How the data were processed

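ATAC-seq was done on pooled cattle oocytes and embryos, 56 libraries in 11 groups. Per the submitters' processing notes the tools were Bowtie2 2.3, MACS2, bedtools and HOMER, with build UMD3.1; no settings are given in these sources. Per the series text, the authors merged the peaks of a stage's libraries into 1 deposited list, so peaks were not compared between replicates. Each deposited list holds chromosome, start and end; starts were read as 0-based, an assumption, and 1 was added.

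Computed here with pandas 2.3.3 and numpy 2.4.6 under Python 3.11.15 (intervals with scipy 1.17.1, plots with matplotlib 3.10.9) were overlaps of 1 bp or more, widths, 1 Mb windows (20 or more peaks of both lists for a ratio) and exact binomial intervals. The overlap code was tested on simulated lists, and 16 of 16 counts equalled those of bedtools 2.31.1. Depth is unknown, and no test was run.

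Named regions were the 6 widest unshared peaks of each list, the 6 widest shared 16-cell peaks, the 5 one-to-one regions with the largest width ratio each way (wider peak of 1000 bp or more), the 6 windows with the most extreme share ratios each way, the 3 highest and 3 lowest chromosomes and X, and the 5 widest unshared peaks by later pattern. The members, rules and comparisons were chosen with earlier results of these data known. Alternatives varied the overlap rule, width limit, joining gap, list length, recurring regions, the X chromosome, fold and window size.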

Additional observations from a re-analysis of the deposited data

How the results depend on the processing

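The 16-cell list had more peaks under each alternative that could differ, at 1.10 to 1.29 times the 8-cell number. Keeping peaks at or above the lower bound of width common to both lists gave 36.9% of 16-cell peaks shared, 44.6% of 8-cell peaks shared and 35.6% of 16-cell only peaks in the morula list. Peaks of 500 bp or more gave 45.8% of 16-cell and 49.95% of 8-cell peaks shared. In the morula list were then 62.6% of 16-cell only and 32.1% of 8-cell only peaks. Both lists were cut before this split, so these classes also hold peaks that meet a narrower peak of the other list. With the full lists the morula share of 8-cell only peaks was at most 25.4% in any width band. Joining peaks closer than 500 bp gave 45.5% of 8-cell peaks shared, morula shares of 33.6% for 16-cell only and 14.6% for 8-cell only, and a median log2 width ratio of -0.058. Keeping the 16-cell list to its widest peaks at equal length gave 41.9% of 16-cell and 41.6% of 8-cell peaks shared. Morula shares were then 40.1% for 16-cell only and 17.0% for 8-cell only, with a ratio of -0.0082. The 8-cell only class there also holds peaks that meet a dropped 16-cell peak. That alternative, which drops the narrowest 16-cell peaks alone, turned round 2 differences: the percent shared was then slightly higher for 16-cell peaks, and 11.4% of one-to-one regions were 2-fold wider in 16-cell embryos against 10.7% narrower. Requiring 50% of both peaks to be covered gave 20.4% of 16-cell and 26.1% of 8-cell peaks shared, 16.1% of 16-cell only and 9.47% of 8-cell only peaks in the morula list, and a ratio of -0.042. Widening peaks by 250 bp for the split gave 40.8% of 16-cell and 50.5% of 8-cell peaks shared. Of the classes so made, matched without widening, 34.2% of 16-cell only and 13.3% of 8-cell only peaks were in the morula list. Without regions recurring in the short lists 35.3% of 16-cell and 44.3% of 8-cell peaks were shared, and without X 14.9% of 8-cell only peaks were in the morula list. The central-base rule, chosen after seeing the data, gave 29.8% of 16-cell and 36.0% of 8-cell peaks shared. With the classes still split by 1 bp of overlap, it placed 29.2% of 16-cell only and 10.9% of 8-cell only peaks in the morula list. Beyond what each rule itself fixes, the cause of these shifts was not tested. The ratio of peak number at equal length is 1 by construction and is not counted. No replicate could be left out, and no paired analysis was possible because each group has 1 merged list.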
